A study of Homo sapiens with 7 samples.

Results

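The region examined here is a gene-rich stretch of chromosome 12 that takes its name from CNPY2 and PAN2. Its members were all loops of 7 deposited HiChIP lists with at least 1 anchor midpoint between 56.4 and 57.05 Mb on chromosome 12 (hg19, the same assembly as GRCh37). They numbered 859 of the 135475 loops in the 7 lists. The window had been placed around a loop from 56709 to 56857 kb that was listed for ZNF143, for RAD21 and, in cells lacking ZNF143, for CTCF. Those listings chose the region and are given below as description.

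In HiChIP, neighbouring DNA ends of fixed chromatin are ligated, enriched with an antibody and sequenced from both sides. All cells were HEC-1-B, a line of human uterine adenocarcinoma, or its derivatives. Wild-type HEC-1-B cells were used with antibodies against ZNF143, CTCF and RAD21, and ZNF143KO cells, in which the ZNF143 gene is knocked out, with the CTCF and RAD21 antibodies. CTCF-AID cells, in which CTCF carries a degradation tag that acts with the TiR1 protein when auxin (IAA) is added, were used with the ZNF143 antibody at 0 h and at 24 h of 500 μM IAA. Each of the 7 groups had 1 library, so no test between groups was possible. The labels do not say whether the knockout and tagged lines are single clones. No list here measures ZNF143 in ZNF143KO cells or CTCF after auxin, and the loss of these proteins was thus not verified.

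ZNF143 is a zinc-finger protein that binds near the start sites of many housekeeping genes through a long motif that begins with ACTACAA. The zinc-finger protein CTCF holds cohesin, the ring complex that contains RAD21, at its binding sites while cohesin extrudes chromatin loops. Such loops join CTCF sites, whereas active promoters also contact each other.

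In the RefSeq order of protein-coding genes, the neighbours along this stretch are SLC39A5, ANKRD52, COQ10A, CS, CNPY2, PAN2, IL23A, STAT2, APOF, TIMELESS, MIP, SPRYD4, GLS2, RBMS2 and BAZ2A. CNPY2 encodes a resident protein of the endoplasmic reticulum, and PAN2 the catalytic subunit of a deadenylase that shortens messenger RNA tails. STAT2 is a transcription factor of the type I interferon response, TIMELESS a protein of the replication fork, and SPRYD4 a protein with a SPRY domain. The gene tables used here follow GRCh38.p14 and the loops hg19, and no coordinates were converted. No anchor was therefore assigned to a gene, and whether the anchors lie at the promoters of these genes was not determined.

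The promoters of CNPY2, PAN2 and STAT2 are shown because the region is named for the former pair and because STAT2 was the single one of the 5 named genes with a match to the ZNF143 core. Sequences are the 250 bases before the RefSeq start (GRCh38.p14), on the gene's strand, with motif matches in capitals. They cover chr12:56315989-56316238 (minus strand) for CNPY2, chr12:56334001-56334250 (minus strand) for the first of the PAN2 starts and chr12:56360108-56360357 (minus strand) for STAT2.
CNPY2: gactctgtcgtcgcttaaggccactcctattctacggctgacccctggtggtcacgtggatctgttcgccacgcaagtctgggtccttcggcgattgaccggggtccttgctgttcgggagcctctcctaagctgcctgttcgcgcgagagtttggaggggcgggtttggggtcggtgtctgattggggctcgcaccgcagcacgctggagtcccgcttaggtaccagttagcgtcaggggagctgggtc
PAN2: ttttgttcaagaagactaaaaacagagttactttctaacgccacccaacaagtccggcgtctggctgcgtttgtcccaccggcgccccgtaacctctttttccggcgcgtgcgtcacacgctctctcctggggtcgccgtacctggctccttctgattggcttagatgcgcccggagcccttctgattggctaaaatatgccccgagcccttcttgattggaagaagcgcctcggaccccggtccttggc
STAT2: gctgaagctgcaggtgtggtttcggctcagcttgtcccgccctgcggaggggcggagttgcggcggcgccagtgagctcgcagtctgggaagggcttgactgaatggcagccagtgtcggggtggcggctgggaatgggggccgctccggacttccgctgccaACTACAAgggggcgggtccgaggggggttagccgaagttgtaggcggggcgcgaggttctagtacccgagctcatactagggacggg

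Promoter windows of 300 bases were searched on both strands for ACTACAA. Of 33 genes listed for this stretch of the chromosome and its flanks, 28 had a promoter in the table. Of these, 4 held ACTACAA (STAT2, PA2G4, RPS26 and PRIM1), against 3.43% of all 27305 genes with a promoter there. Over promoters the share was 2.77% of 35116. RPS26 encodes a protein of the small ribosomal subunit, PA2G4 a growth-regulated protein that binds ERBB3, and PRIM1 a subunit of the primase. The stretches around their matches, of 67 bases each, are given to show the letters on both sides of the match. They cover chr12:56104451-56104517 (plus strand) for PA2G4, chr12:56041715-56041781 (plus strand) for RPS26 and chr12:56752412-56752478 (minus strand) for PRIM1, all GRCh38.p14.
PA2G4: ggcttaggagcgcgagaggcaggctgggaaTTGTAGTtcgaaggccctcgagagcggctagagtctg
RPS26: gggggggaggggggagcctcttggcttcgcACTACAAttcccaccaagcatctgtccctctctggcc
PRIM1: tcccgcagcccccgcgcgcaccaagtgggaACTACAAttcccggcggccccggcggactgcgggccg
In RPS26 and PRIM1, and in PA2G4 on the opposite strand, the match is followed by ttccc, and in STAT2 by ggggg. CNPY2, PAN2, TIMELESS and SPRYD4 held no match in this window. A match or its lack describes these letters and says nothing of whether the factor binds.

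The region held 126 loops in the wild-type ZNF143 list (1.05% of that list, 95% Wilson interval 0.884 to 1.25), 96 in wild-type CTCF (0.497%, 0.407 to 0.607) and 82 in wild-type RAD21 (0.488%, 0.394 to 0.606). The share of the ZNF143 list was thus the higher one, with an interval above the other two. In ZNF143KO cells there were 104 CTCF loops (0.667%, 0.551 to 0.807) and 47 RAD21 loops (0.435%, 0.327 to 0.578). The CTCF-AID lists had 245 ZNF143 loops at 0 h (0.606%, 0.535 to 0.687) and 159 at 24 h (0.772%, 0.662 to 0.901). Intervals here and below cover counting error in 1 library only. Copies of 1 molecule were not identified, and many of these loops have an anchor in common, which the intervals leave out of account. A loop's count is the whole number given with it and was taken as a number of supporting read pairs. Summed over each whole list, the counts ran from 33460 to 143119, and no list held a loop under 2 counts, so a loop that is not listed is not shown to be absent. In the region 85.7% of loops at 0 h and 79.2% at 24 h had even counts, against 60.4% to 72.3% in the other 5 lists, so counts of the CTCF-AID lists may be on another scale.

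Anchors that overlapped between lists were merged, which left 108 anchors, 42 of them with a midpoint inside the window, and 457 anchor pairs. Anchors are called below by the start of the merged interval on chromosome 12 in kb. The loops of an anchor are counted as distinct anchor pairs, and its summed count adds all loops of these pairs. Of the anchors inside the window, 9 had loops in all 7 lists, 5 had loops in ZNF143 lists alone and 9 in CTCF or RAD21 lists alone. Of the pairs, 355 were listed for ZNF143 in at least 1 list and 181 for CTCF or RAD21, and 79 belonged to both. That is 22.3% of the former and 43.6% of the latter. Such numbers were not taken over the whole lists, so they describe the region and are not shown to set it apart. The edges of the window fell close to anchors. On the left, an anchor 1.12 kb inside had 3, 5 and 4 ZNF143 loops in wild-type cells, at 0 h and at 24 h, and the nearest anchor outside, at 9.71 kb from the edge, was joined to the window in 6 of 7 lists. Its loops into the window were 4 for ZNF143, 8 for CTCF and 7 for RAD21 in wild-type cells, 6 for CTCF and 3 for RAD21 in ZNF143KO cells, and 7 and 0 for ZNF143 at 0 h and 24 h. On the right the nearest anchors, 2.17 kb inside and 29.5 kb outside, had 2 ZNF143 loops at 0 h and 1 CTCF loop in ZNF143KO cells.

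**Figure D1:**
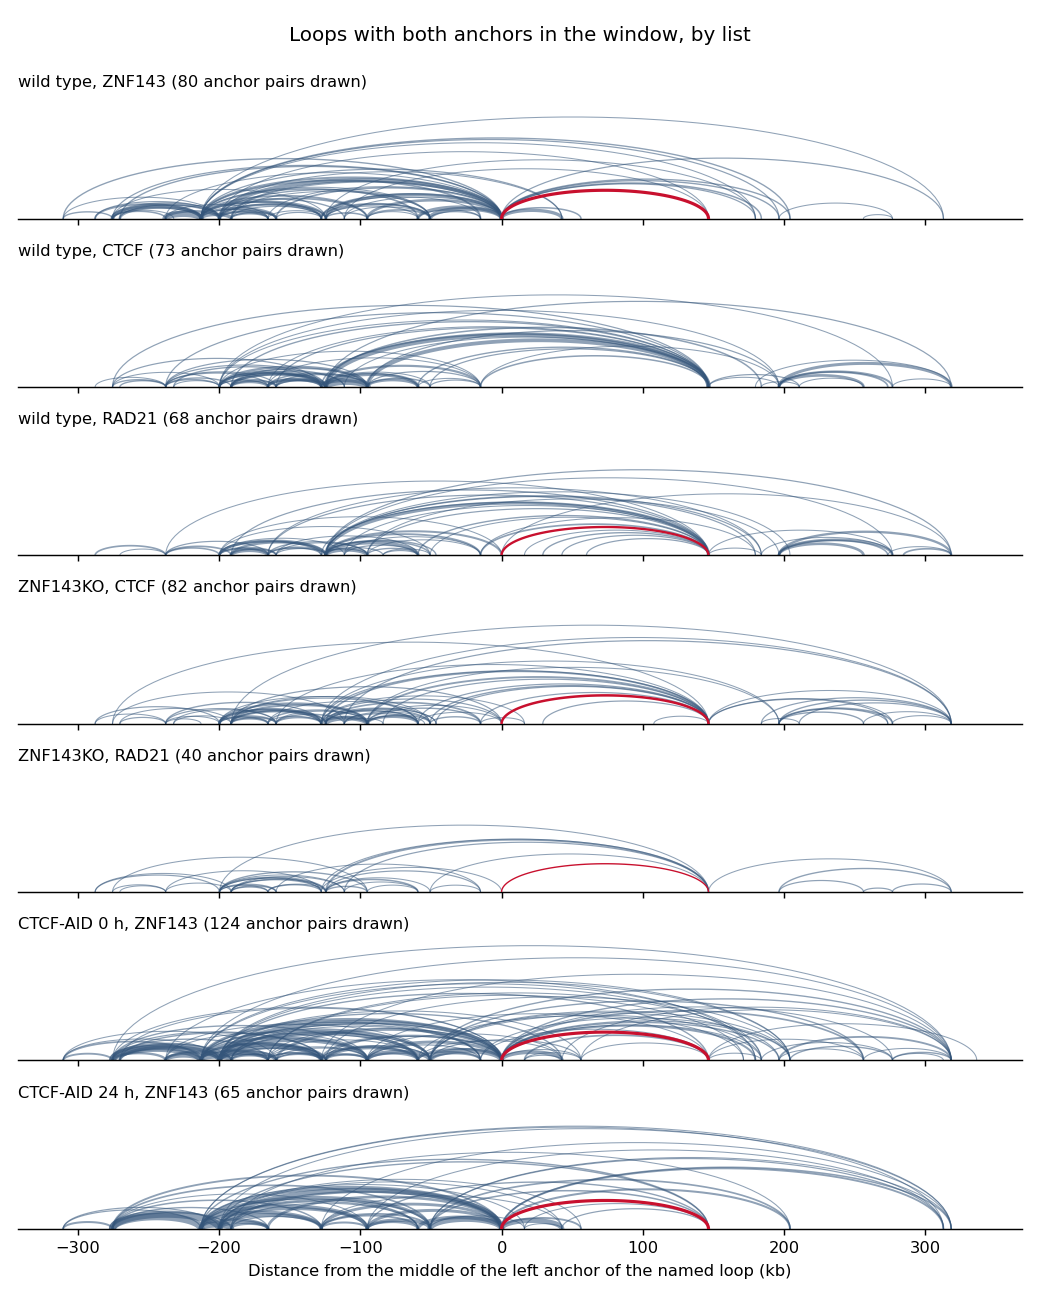
Loops with both anchors in the window, 1 panel per list; the horizontal axis is the distance in kb from the middle of the 56709 kb anchor, arc height is proportional to span and line width to the count. The 56709 to 56857 kb loop (red) is drawn in 6 of 7 panels, with counts of 15, 10, 11, 4, 15 and 15 from top to bottom, and arcs in the ZNF143 panels gather at the anchors to its left.

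The loop from 56709 to 56857 kb joined chr12:56708926-56710885 to chr12:56857701-56858862 in the ZNF143 lists, a span of 148.4 kb. Its ZNF143 count was 15 in wild-type cells, 15 in CTCF-AID cells at 0 h and 15 after 24 h of auxin (exact Poisson 95% interval 8.40 to 24.7 for each). The loop was therefore listed with the same number before and after auxin. Per 100000 counts of the list, these were 30.4 (17.0 to 50.1) in wild-type cells, 10.5 (5.87 to 17.3) at 0 h and 14.6 (8.15 to 24.0) at 24 h. The intervals at 0 h and 24 h overlapped. Within the region the loop ranked 9 of 126 by count in wild-type cells, 13 of 245 at 0 h and 17 of 159 at 24 h.

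For cohesin the same loop had a RAD21 count of 10 (4.80 to 18.4) in wild-type and 4 (1.09 to 10.2) in ZNF143KO cells. Per 100000 listed counts these were 13.4 (6.44 to 24.7) and 11.95 (3.26 to 30.6), intervals that overlapped, and the ranks in the region were 8 of 82 and 5 of 47. The CTCF list of wild-type cells did not hold it. In ZNF143KO cells its CTCF count was 11 (5.49 to 19.7), or 23.8 (11.9 to 42.6) per 100000, the rank 4 of 104. In wild-type cells the left anchor, 56709 kb, had 0 CTCF loops of any kind, whereas the right anchor, 56857 kb, had 17 in each CTCF list. The RAD21 anchor on the left was chr12:56709449-56713877 in wild-type cells, shifted towards higher coordinates, and chr12:56708926-56710885 in ZNF143KO cells.

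The ends of this loop differed in the antibodies that listed them and in their counts, and shared some partners. Apart from the loop itself, 13 of the 17 wild-type CTCF partners of the right anchor and 7 of its 16 in ZNF143KO cells were among the 29 wild-type ZNF143 partners of the left anchor. Within 1 list, the wild-type ZNF143 list had all 3 right partners among the 29 left ones, the wild-type RAD21 list had 1 in common of 3 left and 16 right, and the CTCF list of ZNF143KO cells 3 of 5 and 16. Partners shared by other anchors of the window were not counted, so these numbers are not shown to be particular to this loop. The left anchor was mostly an anchor of ZNF143 loops, with 30 loops in wild-type cells (summed count 207), 39 at 0 h (250) and 30 at 24 h (276), against 4 and 2 RAD21 loops and 0 and 6 CTCF loops in wild-type and ZNF143KO cells. Its 3 ZNF143 loops with the highest counts at 0 h and at 24 h joined it to 56660, 56509 and 56753 kb. In wild-type cells, at 0 h and at 24 h the counts were 21, 27 and 31 for 56660 kb. They were 19, 21 and 25 for 56509 kb and 16, 19 and 26 for 56753 kb. For these 3 loops the wild-type value per 100000 listed counts was the highest, at 42.6, 38.5 and 32.4, against 18.9, 14.7 and 13.3 at 0 h and 30.1, 24.3 and 25.3 at 24 h. In wild-type cells 56651 kb ranked above 56753 kb, with a count of 17, and it had 9 at 0 h and 18 at 24 h. In both RAD21 lists and in the CTCF list of ZNF143KO cells, by contrast, the partner with the highest count was the right anchor, 56857 kb.

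The right anchor was mostly an anchor of CTCF and cohesin loops. It had 17 CTCF and 17 RAD21 loops in wild-type cells (summed counts 88 and 70) and 17 and 7 in ZNF143KO cells (61 and 22), against 4, 11 and 7 ZNF143 loops in wild-type cells, at 0 h and at 24 h. Partners at lower coordinates numbered 13 of 17 and 15 of 17 for CTCF and RAD21 in wild-type cells and 13 of 17 and 6 of 7 in ZNF143KO cells. For ZNF143 they numbered 3 of 4 in wild-type cells, 6 of 11 at 0 h and 7 of 7 at 24 h. For wild-type CTCF its main partners were 56586 kb (count 24) and 56614 kb (count 19), and for wild-type RAD21 56586 kb (count 16) and then 56709 kb (count 10). In ZNF143KO cells the order for CTCF differed, with 56709 kb first (count 11), then 56614 kb (7) and 56586 kb (6). In all 3 ZNF143 lists 56709 kb came first with its count of 15, and the next partner had 2, 6 and 5 counts.

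The 5 anchors with most distinct partners were 56497 kb (59 pairs), 56709 kb (53), 56509 kb (48), 56435 kb (40) and 56660 kb (36), all within 275.4 kb of each other, and 56857 kb had 35. They lay 212.8 kb, 199.7 kb, 275.4 kb and 50.6 kb to the left of 56709 kb, and 56857 kb lay 146.5 kb to its right. The anchor at 56497 kb (chr12:56497334-56499867) had 33, 34 and 28 ZNF143 loops in wild-type cells, at 0 h and at 24 h, with summed counts of 227, 289 and 273. It had 0 loops in the wild-type CTCF list and in both RAD21 lists, and 1 loop with a count of 2 in the CTCF list of ZNF143KO cells. The anchor at 56509 kb, 13.1 kb away, was in all 7 lists, with 16, 30 and 25 ZNF143 loops and between 9 and 13 CTCF or RAD21 loops.

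Among these 6 anchors 14 pairs are at least 20 kb apart, the shortest span the lists hold. For ZNF143, 10 of them were joined in wild-type cells, 10 at 0 h and 13 at 24 h, with summed counts of 109, 183 and 237. These made up 16.6%, 14.3% and 23.8% of the region's counts. For CTCF and RAD21 in wild-type cells 4 and 4 were joined, with summed counts of 10 and 16, and in ZNF143KO cells 3 and 3, with 17 and 8. The 6 anchors were picked by their number of loops, so their density is a description. The pair from 56435 to 56497 kb had counts of 19, 51 and 58 for ZNF143 in wild-type cells, at 0 h and at 24 h, and was in no other list. From 56435 to 56509 kb they were 16, 35 and 43, and the wild-type CTCF list held this pair with a count of 2. From 56497 to 56709 kb the ZNF143 counts were 8, 12 and 18. The long pairs from 56435 to 56660 kb (count 6) and from 56497 to 56857 kb (count 4) were listed at 24 h alone. The pair from 56509 to 56660 kb went the other way, with 11 counts at 0 h and 7 at 24 h.

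**Figure D2:**
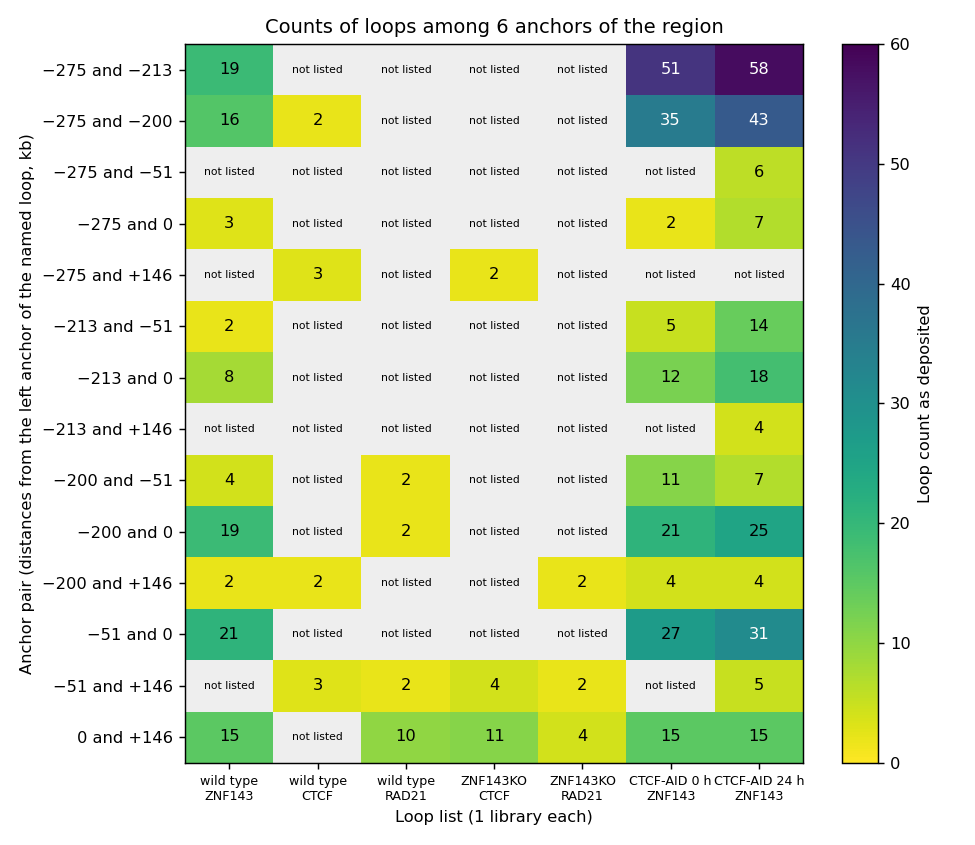
Loop counts as deposited for the 14 anchor pairs (rows, distances in kb from the 56709 kb anchor) in the 7 lists (columns); grey cells are pairs that are not listed. The ZNF143 columns are filled in 10, 10 and 13 rows, and the bottom row, the 56709 to 56857 kb loop, is filled in 6 of 7 columns.

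After 24 h of auxin the anchors of ZNF143 loops differed in their course. Of 15 anchors inside the window with at least 10 loops at 0 h, 11 had a lower and 4 a higher summed count at 24 h. Per 100000 listed counts the tally turned round, with 6 lower and 9 higher, so the direction at 5 of the anchors depends on the scale. Over the region the summed count at 24 h was 0.779 times that at 0 h, and over the whole lists 0.719 times. The anchors at 56472, 56551 and 56586 kb had 11, 11 and 13 loops at 0 h (summed counts 66, 67 and 62) and 0 loops at 24 h. Anchors kept at 24 h lay close to the latter pair: 56583 kb, 1.09 kb from 56586 kb, had 14 loops (summed count 90) and 56545 kb, 4.13 kb from the 56551 kb anchor, 7 (57). The nearest 24 h anchor to 56472 kb was 23.7 kb away. In wild-type cells these 3 anchors had 13, 8 and 13 CTCF loops with summed counts of 56, 37 and 169. The anchor at 56614 kb, with a wild-type CTCF count of 151, went from 187 to 93. It joins a pair of separate 0 h anchors, the second of which had no overlapping anchor at 24 h but lay 0.327 kb from one, and with the highest count per pair alone the sum went from 119 to 93. The anchors at 56709 and 56660 kb had 250 and 117 counts at 0 h and 276 and 130 at 24 h. Their CTCF counts in wild-type cells were 0 and 13. The other anchors with a higher summed count, 56519 and 56545 kb, went from 68 to 70 and from 53 to 57, with wild-type CTCF counts of 55 and 53, close to that of 56472 kb and above that of 56551 kb. Whether the course of an anchor is related to its CTCF loops was not tested. At 56497 and 56435 kb the sums were 289 and 186 at 0 h and 273 and 182 at 24 h.

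**Figure D3:**
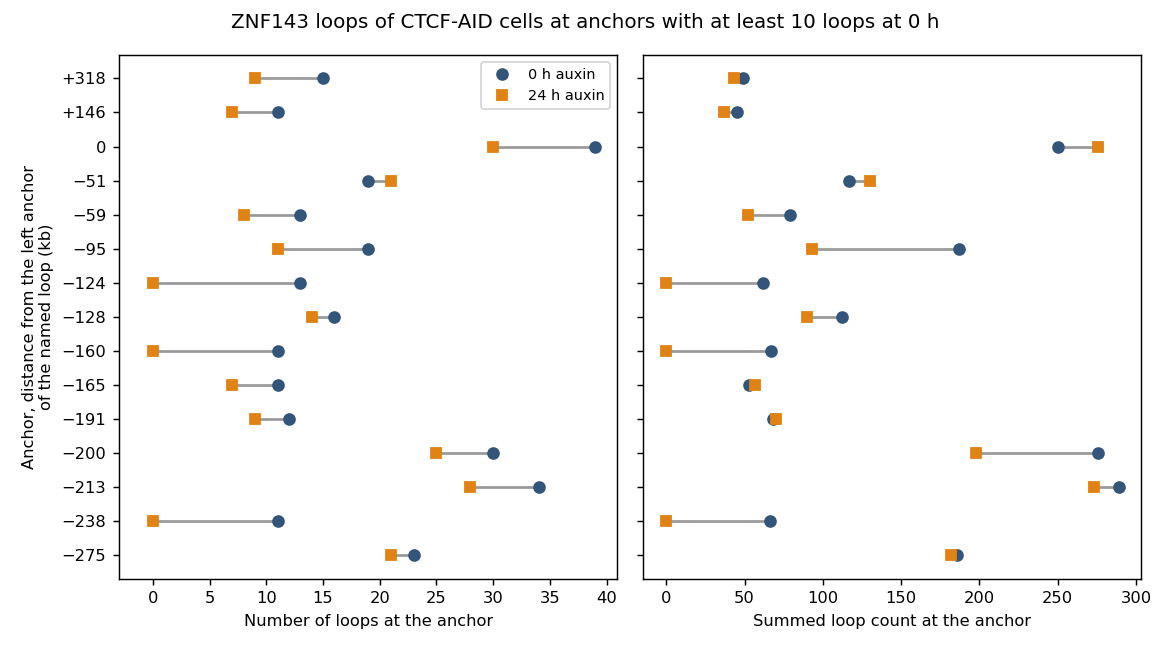
Number of ZNF143 loops (left) and their summed count (right) at each of 15 anchors with at least 10 loops at 0 h, in CTCF-AID cells at 0 h (circles) and 24 h (squares) of auxin; the vertical axis names each anchor by its distance in kb from 56709 kb. Anchors at −238, −160 and −124 kb go to 0, those at −165 and −128 kb beside the latter pair have 57 and 90 counts at 24 h, and the anchor at 0 kb has a summed count of 250 at 0 h and 276 at 24 h.

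Of the 31 anchors inside the window in the 0 h list, 13 (41.9%, 26.4 to 59.2) had no overlapping anchor at 24 h, against 61.6% of the 21128 anchors in the whole list. Of these 13, 4 lay within 5 kb of a 24 h anchor, all of them at wild-type CTCF loop anchors, and without them the shares were 29.0% (16.1 to 46.6) in the region and 57.5% in the list. Of the 21 that overlapped a wild-type CTCF loop anchor 11 were missing at 24 h, and of the other 10, 2. These shares, 52.4% (32.4 to 71.7) and 20.0% (5.67 to 51.0), have overlapping intervals, and over the whole list they were 65.6% and 59.0%. Of the region's loops at 0 h, the share found again at 24 h was 61.5% (42.5 to 77.6) of 26 loops with 0 anchors at wild-type CTCF loop anchors, 45.1% (35.8 to 54.8) of 102 with 1 and 36.8% (28.6 to 45.8) of 117 with 2. Neighbouring intervals overlapped. Over the whole list the shares were 29.4%, 23.7% and 19.0%. With CTCF loop anchors widened by 5 kb, a setting added after seeing the data, they were closer over the list, at 26.9%, 24.4% and 23.3%, and 61.9%, 47.4% and 36.4% in the region. A loop was called found again when its left and its right anchor, each widened by 5 kb, met the left and the right anchor of 1 loop in the other list.

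In all, 105 of the 245 ZNF143 loops at 0 h (42.9%, 36.8 to 49.1) were found at 24 h, against 24.7% of the whole list and 21.1% (19.4 to 22.9) of the other loops on chromosome 12. The region's interval lay above both. With the whole list's share found in each class of count, 32.4% of the region's loops would have been found. Among loops with 10 counts or more at 0 h, 30 of 37 were found (81.1%, 65.8 to 90.5), against 73.6% in the whole list. Of the 140 loops not found, 103 had an anchor that no 24 h anchor overlapped and 37 had both anchors overlapped. Of the 118 loops at 0 h with both anchors overlapped, 81 (68.6%) were found. Overlap here was direct, without the 5 kb used for loops found again, and these numbers were not taken over the whole list. Of the 105 found, 64 had a higher and 20 a lower count at 24 h, with a median ratio of 1.23. Over the whole list 4911 of 9967 found had a higher and 2275 a lower count, with a median ratio of 1.00. Among loops with 10 counts or more at 0 h the median ratios were closer, 1.14 in the region and 1.11 in the list. In the other direction 82 of the 159 loops at 24 h (51.6%, 43.9 to 59.2) were found at 0 h, against 45.4% of the whole list, and with the list's share per class of count 53.3% would have been found, more than the region's share.

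The 0 h loops with the highest counts that were not found at 24 h joined chr12:56389502-56390673 to chr12:56434690-56437224 (count 26) and chr12:56472239-56473658 to chr12:56497334-56499485 (count 21). The latter was the loop of the region with the highest count in the wild-type ZNF143 list, at 35. Both had 1 anchor, 56389 and 56472 kb, that carried no loop at 24 h, while their other anchors, 56435 and 56497 kb, had 21 and 28. The 24 h loops with the highest counts that were not found at 0 h joined chr12:56211094-56213055 to chr12:56497334-56499485 (count 16) and chr12:56708926-56710885 to chr12:57023375-57025012 (count 7). The second was also listed for ZNF143 in wild-type cells (count 3). The first was not, but the adjacent anchor chr12:56213056-56216792 was joined to 56497 kb there with a count of 3.

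**Figure D4:**
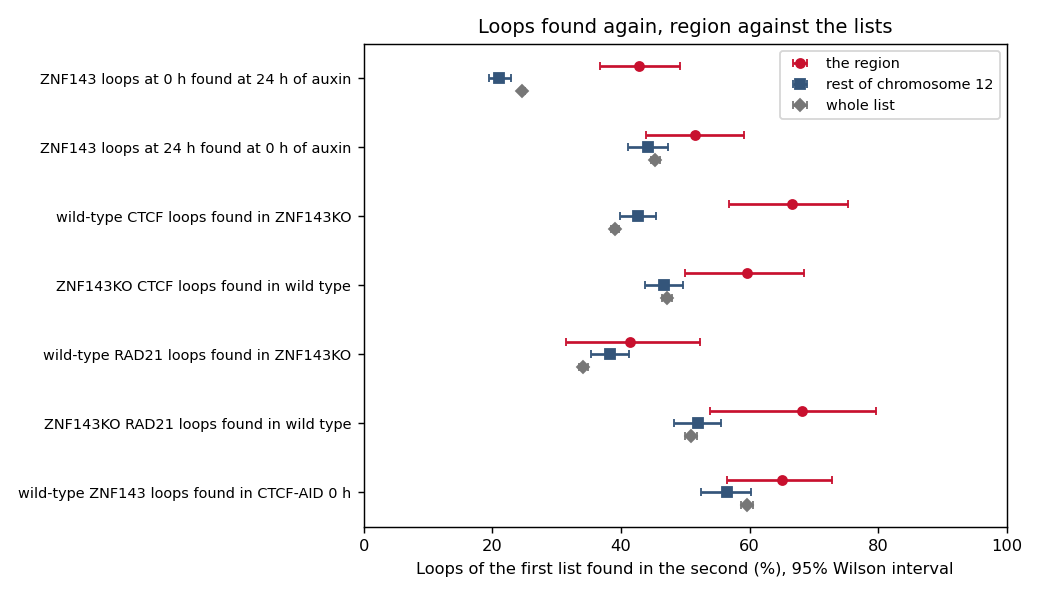
Share of the loops of a first list that were found in a second list (%), for the region, for the rest of chromosome 12 and for the whole list, with 95% Wilson intervals. The region's share is 42.9% against 24.7% for ZNF143 loops from 0 h to 24 h and 66.7% against 39.1% for CTCF loops from wild-type to ZNF143KO cells.

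In ZNF143KO cells the CTCF loops of the region were more numerous than in wild-type cells (104 and 96), a ratio of 1.08, against 0.808 over the whole lists. The order turned round among loops with 3 counts or more (58 in ZNF143KO and 66 in wild-type cells) and with 5 or more (25 and 34). The ratio of summed counts was 0.730 in the region and 0.573 over the lists. Of the wild-type CTCF loops 64 of 96 (66.7%, 56.8 to 75.3) were found in ZNF143KO cells, against 39.1% of the whole list and 42.6% (39.8 to 45.4) of the rest of chromosome 12. With the whole list's share per class of count 47.8% would have been found. All 15 loops with 10 counts or more were among those found, against 89.9% of such loops in the list. In the other direction 62 of 104 (59.6%, 50.0 to 68.5) were found, against 47.1% of the list and 55.8% at its share per class of count, which lies inside the interval. The loop with the highest CTCF count, from 56586 to 56614 kb, had 61 in wild-type and 25 in ZNF143KO cells. Its RAD21 counts were 20 and 4, and its ZNF143 counts 5 in wild-type cells and 7 at 0 h, with no such pair at 24 h. The adjacent anchor at 56583 kb was joined to 56614 kb with counts of 9 at 0 h and 8 at 24 h.

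RAD21 loops of the region were fewer in ZNF143KO than in wild-type cells (47 and 82), a ratio of 0.573 against 0.644 over the whole lists. The ratio of summed counts was 0.358 in the region and 0.450 over the lists. Of the wild-type RAD21 loops 34 of 82 (41.5%, 31.4 to 52.3) were found, against 34.1% of the list, which lies inside the region's interval. With a minimum of 5 counts in both lists the shares were 18.5% (8.18 to 36.7) in the region and 26.5% in the list. At that minimum the RAD21 list of ZNF143KO cells held 4 loops of the region, against 27 in wild-type cells, which limits the share that can be found. In the other direction 32 of 47 (68.1%, 53.8 to 79.6) were found, against 50.9% of the list and 51.9% at its share per class of count. Among the 34 RAD21 loops found again, 24 had a lower and 6 a higher count in ZNF143KO cells (median ratio 0.652), against 57.7% lower and 21.3% higher over the whole list (0.667). Among the 64 CTCF loops found again, 33 had a lower and 16 a higher count (0.908), against 51.8% and 23.7% over the list (0.818). Of wild-type ZNF143 loops, 82 of 126 (65.1%, 56.4 to 72.8) were found in CTCF-AID cells at 0 h, the pair with no protein removed, against 59.6% of the list, which lies inside that interval.

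The wild-type CTCF loops with the highest counts that were not found in ZNF143KO cells joined chr12:56332329-56335240 to chr12:56472239-56474934 (count 9) and chr12:56389502-56390673 to chr12:56434690-56436099 (count 8). The former was in no other list, and the latter was also missing from the ZNF143 list at 24 h. Among ZNF143KO CTCF loops not found in wild-type cells, the 56709 to 56857 kb loop had the highest count, followed by a loop from chr12:56551119-56552508 to chr12:56598763-56601434 (count 5) that was in no other list. For RAD21 the wild-type loops not found again joined chr12:56907045-56908475 to chr12:56987394-56988787 (count 12) and chr12:56994850-56997002 to chr12:57030052-57031613 (count 6). The former was still listed for CTCF in ZNF143KO cells, with a count of 6 against 8 in wild-type cells. The RAD21 loops of ZNF143KO cells with the highest counts that were not found in wild-type cells joined chr12:56511455-56514247 to chr12:56617122-56618904 (count 4) and chr12:56966573-56968591 to chr12:56987394-56988787 (count 3). The first of these was in both CTCF lists (counts 10 and 9). By direct overlap it was in the ZNF143 lists of wild-type cells (6) and 0 h (12). At 24 h no listed loop overlapped both of its anchors, and within the 5 kb extension the ZNF143 count was 14.

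Few of the region's anchor pairs were shared by all lists. Of the 457 anchor pairs 270 were in 1 list, 8 in 6 lists and 4 in 7. The pairs in all 7 joined 56509 to 56545 kb, 56509 to 56583 kb, 56519 to 56545 kb and 56614 to 56651 kb. Their ZNF143 counts at 24 h were 16, 17, 10 and 11, against 12, 26, 9 and 10 at 0 h. Of the 47 pairs in all 3 ZNF143 lists, 30 were in no CTCF or RAD21 list, and of the 19 pairs in all 4 CTCF and RAD21 lists, 5 were in no ZNF143 list. None of these numbers of shared pairs was taken over the whole lists, so they describe the region alone. The median span of the region's loops was 148.7 kb for wild-type ZNF143, 193.7 kb at 0 h and 360.8 kb at 24 h, against 144.5, 235.6 and 299.6 kb over the lists. For CTCF it was 86.4 and 91.3 kb in wild-type and ZNF143KO cells (lists 153.8 and 120.8 kb), and for RAD21 91.0 and 74.1 kb (lists 160.4 and 141.7 kb), and each of these 4 medians was below that of its list. Among loops with both midpoints inside the window, the ZNF143 medians were 88.3 kb in wild-type cells, 109.3 kb at 0 h and 141.0 kb at 24 h.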

How the data were processed

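HiChIP loop lists of 7 libraries were used. Per the labels' protocols, fixed chromatin was cut with MboI, ligated and precipitated. Per the submitters' processing notes, HiC-Pro and hg19 were used; the loop caller, its filters, versions and pooling of runs are not given in the sources used here. The authors deposited a whole-number count per loop, not scaled to depth, with no loop under 2 counts. The lists of wild-type ZNF143 and ZNF143KO cells had 7 columns and the others 8, so in both knockout comparisons list layout and genotype cannot be told apart.

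Loops were taken by anchor midpoint. Named loops were the 3 with the highest count per list, the 2 not found in each direction of 3 pairs, and the loop the region is named for; named anchors were the 5 with most partners and its ends. Members and lists were chosen with earlier results of these data known. Loop values are counts at merged anchors, the highest where several loops shared a pair. Found-again shares used a 5 kb extension of the first list's anchors. Intervals (Wilson; exact Poisson) came from scipy 1.17.1 in Python 3.11.15. Matching was tested on simulated data. Promoters are from RefSeq, GRCh38.p14. Alternatives covered the extension, the minimum count, the window and halved CTCF-AID counts. Loops between promoters could not be counted without hg19 annotation. Depth of the libraries is unknown.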

Additional observations from a re-analysis of the deposited data

Results flagged for a closer look

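The count of the 56709 to 56857 kb loop in ZNF143KO minus wild-type cells was 11 with the CTCF antibody and -6 with the RAD21 antibody, values of opposite sign. The listings of this loop chose the region, so the values are a description, and with 1 library per group the difference was not tested. The wild-type CTCF list did not hold the loop, which was taken as a count of 0 but can stand for fewer than 2 counts. Per 100000 listed counts the RAD21 values were 13.4 (6.44 to 24.7) and 11.95 (3.26 to 30.6), intervals that overlapped.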

How the results depend on the processing

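No paired analysis was possible because each group had 1 library. Of 111 alternative values, 62 stayed close to the reported one (within its 95% interval, or within 1.5 times for numbers of loops and spans) and 49 moved; neither extension tried changed the count of the 56709 to 56857 kb loop in any list, and with the CTCF-AID counts divided by 2, chosen after seeing the data, its count was 7 at 0 h and 7 at 24 h. Why values moved was not tested, and the number of loops cannot rise with the minimum count. For ZNF143 loops the share found from 0 h to 24 h was 32.2% without extension and 60.6% with halved counts. With both midpoints in the window it was 54.8%. At minimum counts of 3 and 5 it was 62.2% and 67.6%, against 35.6% and 43.9% of the whole list. From 24 h to 0 h it was 61.0% with a 10 kb extension, 59.3% halved and 80.0% with both midpoints inside. At a minimum of 5 it was 66.7%, against 50.7% of the list, not split by class of count. For CTCF the share found in ZNF143KO cells was 53.1% without extension and 76.5% at a minimum of 5, and in the other direction 49.0% and 76.0%. At that minimum the shares of the whole lists were 30.4% and 67.9%. For RAD21 a minimum of 5 gave 18.5% and, in the other direction, 100% of 4 loops, against 26.5% and 74.3% of the lists. From wild-type ZNF143 to 0 h the share was 74.6% with 10 kb, 56.3% halved and 78.8% with both midpoints inside. At a minimum of 5 it was 80.4%, against 69.4% of the list. Loop numbers at a minimum of 3 were 77 (wild-type ZNF143), 66 (wild-type CTCF), 48 (wild-type RAD21), 58 and 22 (ZNF143KO CTCF and RAD21), 111 (0 h) and 90 (24 h), and at a minimum of 5 they were 46, 34 (wild-type CTCF), 27, 25, 4, 74 and 57. With both midpoints inside they were 80, 135 and 65 for ZNF143 in wild-type cells, at 0 h and at 24 h, and halved counts left 104 and 81 in the CTCF-AID lists. Median spans moved to 76.4 kb at a minimum of 5 and 88.3 kb with both midpoints inside (wild-type ZNF143), to 114.8, 86.98, 109.3 and 112.6 kb at 0 h and to 202.2, 149.6, 141.0 and 198.7 kb at 24 h (minimum of 3, of 5, both midpoints inside, halved).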
